A study of Homo sapiens with 27 samples.

Results

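The genes described here drive the passage of human cells from G1 into S phase: the D-type cyclins CCND1, CCND2 and CCND3, the E-type cyclins CCNE1 and CCNE2, the cyclin-dependent kinases CDK4 and CDK6, and the kinase inhibitors CDKN1B (p27), CDKN1C (p57) and CDKN2B (p15). They were found by their Entrez IDs and were 10 of the 24566 genes in the deposited count table. D-type cyclins are made in response to growth signals and pair with CDK4 or CDK6, whose main substrate is the retinoblastoma protein. Its phosphorylation releases E2F transcription factors, which drive the E-type cyclins and the genes of DNA replication. The inhibitors p27 and p57 bind cyclin-kinase complexes, whereas p15 binds CDK4 and CDK6 themselves.

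Total RNA was sequenced in 27 libraries of 9 groups, each with 3 biological replicates, 48 h after treatment. The cells were 2 established human lines, A431 from an epidermoid carcinoma and MDA-MB-231 from a breast adenocarcinoma. Both lines were grown in the same medium with serum. The MDA-MB-231 groups were untreated cells, CKI at 1 mg/ml (Compound Kushen Injection, a mixture extracted from the roots of Kushen and Baituling), 5-FU at 10 µg/ml (5-fluorouracil, which blocks thymidylate synthesis), and CKI plus 5-FU. The A431 groups were untreated cells, a vehicle control of unstated composition, CKI at 1 mg/ml, doxorubicin (which intercalates in DNA and poisons topoisomerase II), and CKI plus doxorubicin, whose dose the labels do not settle. Each line is a single cancer cell line, so the groups describe these lines only, and in bulk RNA a change in the share of cells in a cycle phase and a change of RNA per cell cannot be told apart. An A431 library held 17757206 to 21756536 counts and an MDA-MB-231 library 19871048 to 22809339. The lines matched their labels for most markers: CDH1 was at 362 to 947 CPM (counts scaled by library size) in A431 and 0.334 to 2.03 in MDA-MB-231, and VIM at 2.39 to 37.5 and 713 to 1960, although SPARC, listed for MDA-MB-231, was at 3.65 CPM or less in each library.

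Some control libraries stood apart. Untreated MDA-MB-231 replicate 1 differed from replicates 2 and 3 with chi-square values of 70.8 and 81.8 per degree of freedom, against 2.65 between the latter, and its deviation ran with the GC content of the transcripts (Spearman's rho across genes -0.68). The vehicle libraries of A431 also varied (up to 28.3), with rho from -0.60 to 0.66. Among the members, GC content ran from 34.63% (CCNE2) to 62.94% (CDKN1C). Many of the results that change without that MDA-MB-231 replicate, or with offsets for GC content and length, are therefore given below with both values.

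Of the 10 genes, 9 passed the filter on low counts in each line. CDKN2B (chromosome 9 of GRCh37, 22002902 to 22009304) had 0 counts in 27 of 27 libraries. A count of 0 allows up to 3 counts in a library, or 0.132 to 0.169 CPM depending on its depth, a limit that covers counting error only. CDKN2B was therefore not tested. Levels are given below as CPM after TMM normalization over the 27 libraries (mean ± SD, n = 3 throughout). Fold changes are on the log2 scale with their standard error (SE), and adjusted p-values come from edgeR's quasi-likelihood test with Benjamini-Hochberg adjustment over all genes tested. A gene passed the test at an adjusted p under 0.05, and was called differentially expressed (DE) when its log2 fold change was also beyond 1 in size.

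Per kilobase of transcript, which allows levels to be compared between genes, CCND1 was the most abundant member in untreated cells of each line. It stood at 305 ± 12.8 CPM per kb in A431 and 172 ± 33.9 in MDA-MB-231, followed by CCND3 at 102 ± 9.68 and 122 ± 19.0 and by CDK4 at 50.8 ± 4.24 and 45.0 ± 3.11. CDKN1B came next with 18.4 ± 0.492 and 22.4 ± 2.46. The lowest detected members were CDKN1C in A431, at 1.37 ± 0.248 CPM per kb, and CCND2 in MDA-MB-231, at 0.923 ± 0.212.

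**Figure D1:**
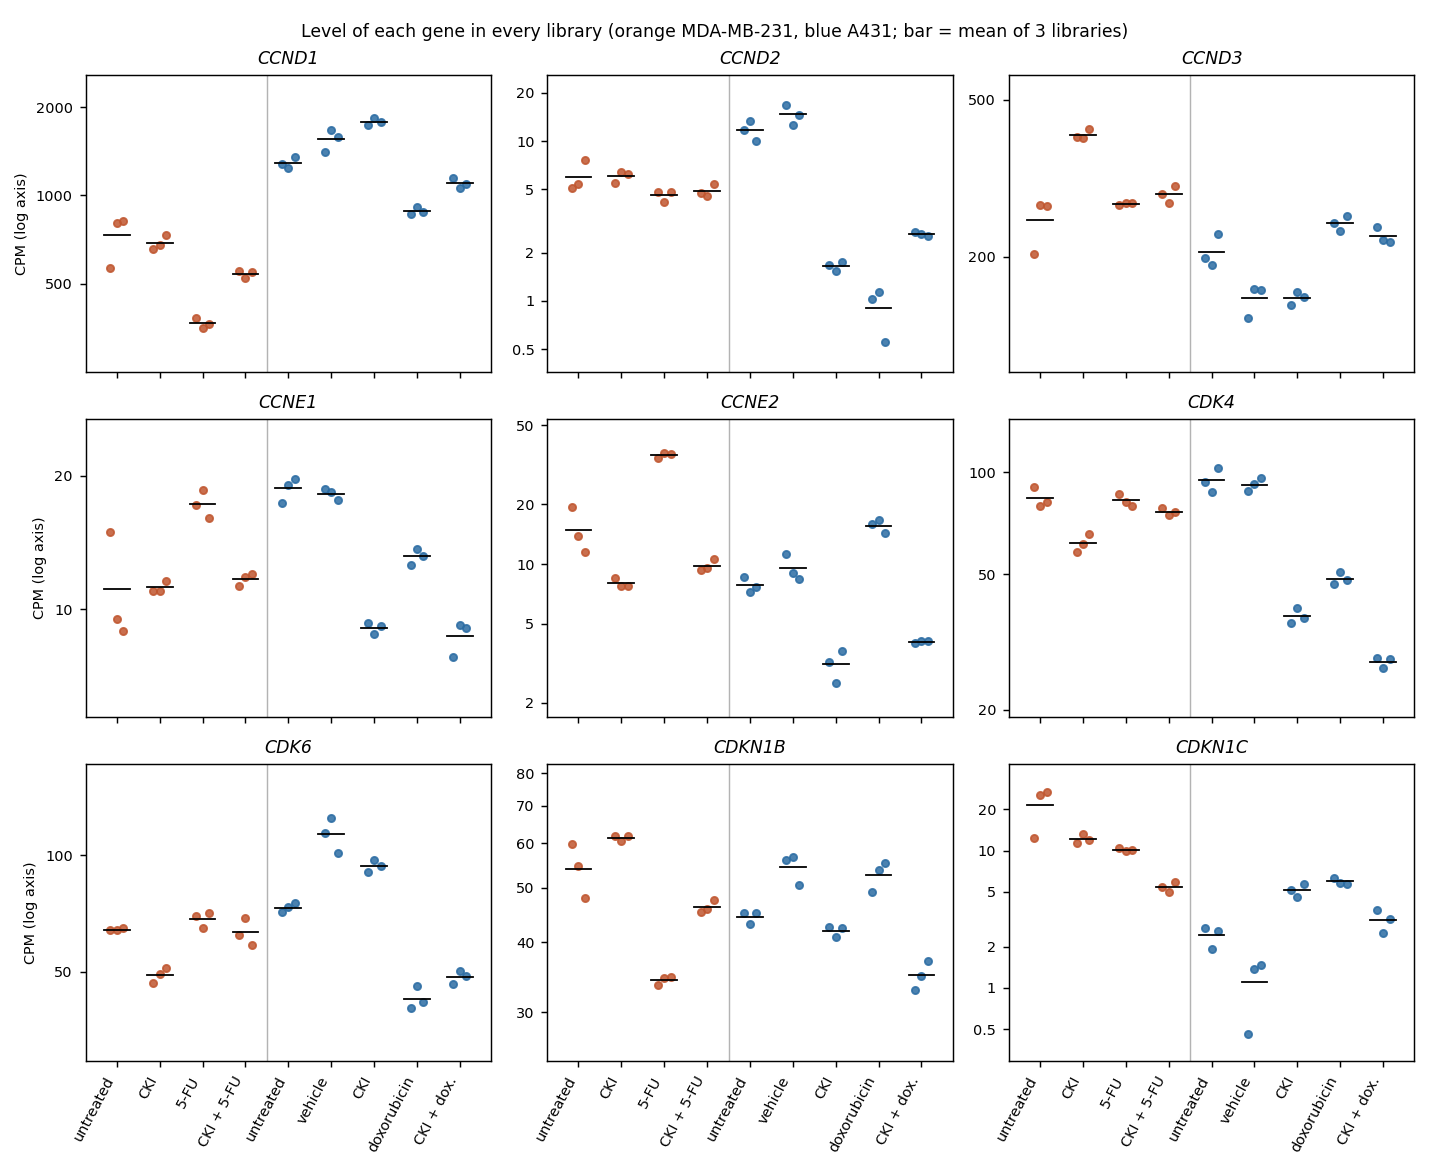
Level of each detected gene in every library, in CPM on a log axis, with 1 panel per gene, orange points for MDA-MB-231, blue points for A431 and a black bar for the mean of 3 libraries. CCND2 and CDK4 are lowest in A431 cells given CKI, doxorubicin or both, CCNE2 is highest in MDA-MB-231 cells given 5-FU (35.4 CPM), and untreated MDA-MB-231 replicate 1 (leftmost point) lies away from its group in CCND1 and CDKN1C.

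The D-type cyclins moved in different directions. With CKI in A431, CCND1 rose and CCND3 fell against untreated cells. Vehicle alone moved these genes the same ways (0.27 and -0.38), and against vehicle neither CKI difference passed the test. To let CCND1 and CCND3 be compared, the 250 bases before the starts of their canonical transcripts are shown, 5′ to 3′ on the strand of the gene. They were read from GRCh37 (CCND1 chr11:69455674-69455923, forward strand, and CCND3 chr6:41909547-41909796, reverse strand), and capitals mark E2F letters.
CCND1: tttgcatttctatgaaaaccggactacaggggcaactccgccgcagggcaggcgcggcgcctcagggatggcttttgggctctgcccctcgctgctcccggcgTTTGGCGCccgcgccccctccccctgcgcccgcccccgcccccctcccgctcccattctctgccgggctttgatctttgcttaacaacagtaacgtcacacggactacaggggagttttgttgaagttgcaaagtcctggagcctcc
CCND3: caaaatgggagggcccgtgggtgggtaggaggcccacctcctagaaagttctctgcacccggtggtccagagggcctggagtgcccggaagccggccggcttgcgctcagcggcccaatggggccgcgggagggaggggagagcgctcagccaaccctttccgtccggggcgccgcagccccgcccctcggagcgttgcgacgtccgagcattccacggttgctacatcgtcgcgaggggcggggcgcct
The letters searched on both strands were TTTCCCGC, TTTCGCGC, TTTGCCGC and TTTGGCGC. CCND1 had a match 147 bases before the start and CCND3 had none in this window, and 3.3% of 22525 such promoters held one. The windows of CCNE1, CCNE2, CDK4, CDK6 and the inhibitors held none either. GCGTG, the core of the aryl hydrocarbon receptor site, was found in the windows of CCNE2 and CDKN1B and in 38.1% of all promoters. These are letter matches and no evidence of binding.

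CCND1 (chromosome 11, 69455924 to 69469242, 5 exons), the most abundant D-type cyclin in untreated cells of each line, rose with CKI and fell with doxorubicin in A431. Untreated A431 libraries had 1280, 1240 and 1350 CPM, CKI libraries 1740, 1830 and 1780, and doxorubicin libraries 865, 915 and 879, and the groups did not overlap. CKI raised it by 0.37 (SE 0.058, edgeR adjusted p = 5.3e-06) and doxorubicin lowered it, at -0.57 (SE 0.058, edgeR adjusted p = 6.0e-09). The vehicle libraries, at 1410, 1670 and 1580 CPM, also lay above the untreated ones (0.27, SE 0.058, edgeR adjusted p = 0.00065), and against vehicle the difference with CKI was 0.10 (edgeR adjusted p = 0.15). In MDA-MB-231 the 5-FU libraries, at 382, 352 and 365 CPM, lay below the untreated 564, 805 and 820, a log2 fold change of -0.99 (SE 0.11, edgeR adjusted p = 1.5e-05). CKI alone left CCND1 at 657, 678 and 733 CPM, which overlapped the untreated libraries (-0.09, SE 0.11, edgeR adjusted p = 0.57). Without untreated replicate 1, the value for CKI was -0.25 (edgeR adjusted p = 4.8e-05) and that for 5-FU was -1.15. Over the 9 groups the order of mean CPM ran from 366 ± 14.9 with 5-FU in MDA-MB-231 to 1780 ± 46.1 with CKI in A431, and of neighbouring groups in this order, CKI-treated and untreated MDA-MB-231 cells were the only pair whose libraries overlapped. Some CCND1 exons overlap LTO1 on the other strand, and the counting is not stated to use strand.

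CCND2 (chromosome 12, 4378937 to 4414519, 5 exons) showed the largest change of any member. Its counts were 197, 242 and 162 in untreated A431 libraries, which fell to 33, 29 and 31 with CKI and to 21, 23 and 11 with doxorubicin, and were 58, 55 and 51 with both agents. The 4 groups did not overlap. In CPM these groups had 11.7 ± 1.64, 1.65 ± 0.112, 0.907 ± 0.312 and 2.62 ± 0.0703. The log2 fold change was -2.92 for CKI (SE 0.17, edgeR adjusted p = 7.3e-13) and -3.71 for doxorubicin (SE 0.19, edgeR adjusted p = 4.2e-14). Although each agent alone lowered CCND2, CKI plus doxorubicin lay 1.54 above doxorubicin (SE 0.24, edgeR adjusted p = 7.4e-06) and 0.75 above CKI (SE 0.22, edgeR adjusted p = 0.0035). In MDA-MB-231, CCND2 stayed between 4.15 and 7.57 CPM in the 12 libraries. CKI gave a log2 fold change of 0.00 there (95% interval -0.33 to 0.33), and the 5-FU value of -0.39 (SE 0.16, edgeR adjusted p = 0.049) lost its call in several alternatives, such as library size alone (-0.26, edgeR adjusted p = 0.17). Vehicle also raised CCND2 slightly in A431 (0.33, SE 0.13, edgeR adjusted p = 0.038), where libraries overlapped and the call was lost with GC and length offsets (0.12). CCND2 exons overlap CCND2-AS1 and other transcripts.

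CCND3 (chromosome 6, 41902672 to 42018095, 5 exons) moved opposite ways with CKI in the lines. In MDA-MB-231 it rose from 203, 271 and 269 CPM in untreated libraries to 403, 399 and 422 with CKI (0.71, SE 0.094, edgeR adjusted p = 0.00012), and these 3 libraries lay above the other 24 libraries, whose highest value was 303 CPM. In A431 it fell from 199, 191 and 228 CPM to 151, 163 and 158 (-0.48, SE 0.072, edgeR adjusted p = 3.0e-06). The vehicle libraries were as low, at 140, 166 and 165 CPM, so that CKI against vehicle gave -0.10 (edgeR adjusted p = 0.22). With GC and length offsets, the vehicle difference of -0.38 became -0.05 (edgeR adjusted p = 0.56) and the CKI value -0.21 (edgeR adjusted p = 0.0020). Doxorubicin raised CCND3 by 0.21 (SE 0.071, edgeR adjusted p = 0.0098), a call that leaving out untreated replicate 1 or 2 or doxorubicin replicate 3 ended, and the 5-FU value was 0.14 (SE 0.093, edgeR adjusted p = 0.23). The latter passed the test with GC and length offsets (0.22, edgeR adjusted p = 0.00021) and with library size alone (0.27, edgeR adjusted p = 0.025), and was 0.01 without untreated replicate 1 (edgeR adjusted p = 0.83).

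The make-up of the D-type cyclins shifted with these changes. CCND1 made up 74.7% ± 0.927 of their summed CPM per kb in untreated A431 cells, 84.4% ± 0.202 with CKI and 63.5% ± 1.51 with doxorubicin. With vehicle it already stood at 82.1% ± 0.413, so most of the difference between CKI and untreated cells was also present in that control. In MDA-MB-231 it made up 58.1% ± 1.18 of the sum in untreated cells, 44.5% ± 0.781 with CKI and 39.0% ± 1.09 with 5-FU, so that CCND3 was the larger part in the treated groups on this scale. Without division by transcript length CCND1 stayed the larger part, at 74.1% ± 0.934 in untreated cells, 62.5% ± 0.730 with CKI, 56.9% ± 1.10 with 5-FU and 64.8% ± 0.741 with both. CCND2 never passed 0.513% of the sum per kb as a group mean, or 0.862% without division by length, so its large fall took little from the total.

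**Figure D2:**
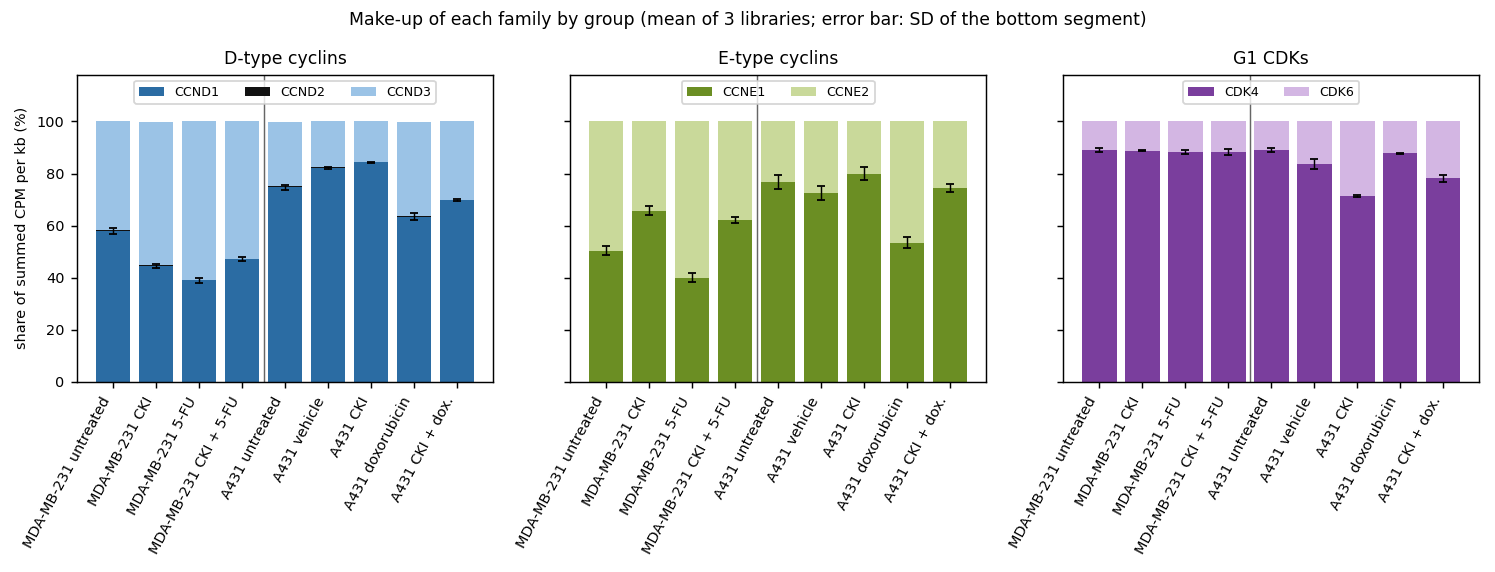
Share of each gene in the summed CPM per kb of its family, in percent, by group, as means of 3 libraries with the SD of the bottom segment. CCND1 gives way to CCND3 in treated MDA-MB-231 cells (58.1% to 44.5% with CKI), and CDK4 falls from 89.0% to 71.5% of the G1 kinases with CKI in A431 (83.6% with vehicle) while staying between 88.3% and 89.1% in MDA-MB-231. Without division by transcript length CDK4 falls from 56.3% to 28.7% with CKI in A431 (44.9% with vehicle).

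CCNE1 (chromosome 19, 30302898 to 30315219, 12 exons), a cyclin that pairs with CDK2 at the entry into S phase, fell with CKI in A431. Untreated libraries had 17.4, 19.1 and 19.7 CPM and CKI libraries 9.32, 8.79 and 9.17, without overlap (-1.14, SE 0.091, edgeR adjusted p = 1.4e-10). With doxorubicin it fell less, to 12.6, 13.7 and 13.2 CPM (-0.54, SE 0.086, edgeR adjusted p = 5.7e-06), and vehicle libraries overlapped untreated ones at 17.6 to 18.7 CPM. In MDA-MB-231 it rose with 5-FU, to 17.2, 18.6 and 16.1 CPM from 14.9, 9.49 and 8.95 (0.64, SE 0.15, edgeR adjusted p = 0.0036). CKI there left it at 11.2 ± 0.328 CPM, within the range of the untreated libraries (0.01, 95% interval -0.34 to 0.35). Without untreated replicate 1, which held the highest of the untreated values, CKI gave 0.27 (edgeR adjusted p = 0.028) and 5-FU 0.90.

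CCNE2 (chromosome 8, 95891998 to 95908906, 12 exons), the other E-type cyclin, went up with 5-FU and with doxorubicin and down with CKI in both lines. In MDA-MB-231 it went from 372, 301 and 233 counts to 745, 759 and 749 with 5-FU, or from 14.9 ± 4.08 to 35.4 ± 0.990 CPM (1.25, SE 0.15, edgeR adjusted p = 1.6e-05), the highest group of all 9. CKI lowered it to 8.02 ± 0.464 CPM (-0.90, SE 0.16, edgeR adjusted p = 0.00086). These 3 groups did not overlap. Untreated replicate 1, which stood apart, held the highest of the untreated counts (372), so the sizes of both changes rest in part on it. With GC and length offsets the values were -0.87 for CKI (edgeR adjusted p = 2.1e-06) and 1.09 for 5-FU (edgeR adjusted p = 1.3e-08). In A431 CCNE2 stood at 7.84 ± 0.690 CPM in untreated, 15.6 ± 1.20 in doxorubicin-treated and 3.13 ± 0.569 CPM in CKI-treated cells, again without overlap. The log2 fold change was 0.97 for doxorubicin (SE 0.12, edgeR adjusted p = 1.3e-07) and -1.42 for CKI (SE 0.15, edgeR adjusted p = 1.7e-08). The share of CCNE2 in the summed CPM per kb of the E-type cyclins rose with this from 23.4% ± 2.65 in untreated A431 to 46.5% ± 1.98 with doxorubicin, and stood at 60.0% ± 1.70 with 5-FU against 49.6% ± 1.78 in untreated MDA-MB-231. Without division by transcript length these shares were 29.5% ± 3.06, 54.3% ± 1.98, 67.2% ± 1.55 and 57.4% ± 1.74. Which E-type cyclin was the larger part thus depended on the scale in doxorubicin-treated A431 and untreated MDA-MB-231 cells. CCNE2 exons overlap INTS8 on the other strand.

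CDK4 (chromosome 12, 58141510 to 58149796, 8 exons) fell with each agent in A431. Untreated libraries had 93.3, 87.6 and 103 CPM, doxorubicin libraries 46.9, 50.8 and 48.2, CKI libraries 36.0, 39.9 and 37.1, and those with both 28.3, 26.5 and 28.1. None of these groups overlapped, and the vehicle libraries (88.1, 92.1 and 95.9 CPM) lay within the untreated range. The log2 fold change was -1.42 for CKI (SE 0.069, edgeR adjusted p = 2.0e-14) and -0.99 for doxorubicin (SE 0.068, edgeR adjusted p = 6.1e-12). The combination lay lower than doxorubicin (-0.80, SE 0.071, edgeR adjusted p = 1.8e-09) and lower than CKI (-0.36, SE 0.073, edgeR adjusted p = 0.00012). In MDA-MB-231, CKI lowered CDK4 from 90.4, 79.3 and 81.9 CPM to 58.3, 61.5 and 66.0 (-0.45, SE 0.068, edgeR adjusted p = 0.00032), while 5-FU left it at 79.7 to 86.3 CPM (-0.02, 95% interval -0.17 to 0.13). CDK4 exons overlap TSPAN31 on the other strand.

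CDK6 (chromosome 7, 92234235 to 92465887, 8 exons), the partner of D-type cyclins that resembles CDK4, fell beside it with doxorubicin in A431 and with CKI in MDA-MB-231. With CKI in A431 its direction depended on the control. Doxorubicin lowered it in A431, from 71.3, 73.4 and 75.1 CPM to 40.4, 45.9 and 41.7 (-0.81, SE 0.073, edgeR adjusted p = 8.9e-10). Vehicle raised it to 114, 125 and 101 CPM (0.64, SE 0.070, edgeR adjusted p = 4.6e-07). CKI libraries lay between, at 90.5, 97.2 and 93.5 CPM, so that the CKI difference was 0.26 against untreated (SE 0.071, edgeR adjusted p = 0.0022) and -0.37 against vehicle (edgeR adjusted p = 5.4e-05). With GC and length offsets it was -0.14 against untreated (edgeR adjusted p = 0.021), so its direction turned with the control and with the offsets. In MDA-MB-231, CKI lowered CDK6 from 64.0 to 64.8 CPM in untreated libraries to 46.7, 49.3 and 51.1 (-0.40, SE 0.069, edgeR adjusted p = 0.00078), and 5-FU left it at 65.0 to 70.9 CPM (0.09, 95% interval -0.06 to 0.24). Some CDK6 exons overlap CDK6-AS1. CDK4 thus made up 71.5% ± 0.384 of the CPM per kb of both kinases in CKI-treated A431 cells, against 89.0% ± 0.713 in untreated ones and 83.6% ± 1.84 with vehicle. Without division by transcript length these shares of CDK4 were 28.7% ± 0.387, 56.3% ± 1.77 and 44.9% ± 3.4. On that scale CDK6 was the larger part with CKI and with vehicle.

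**Figure D3:**
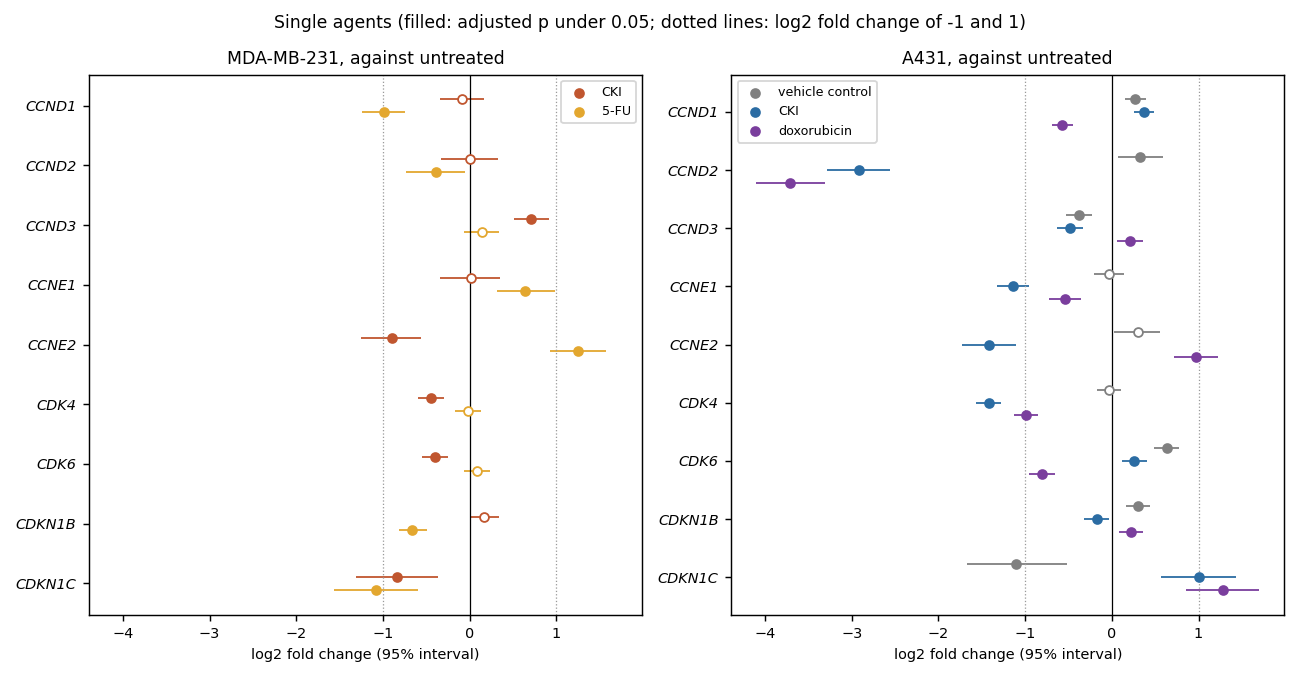
Log2 fold change against untreated cells (x axis) of the 9 tested genes for each single agent and the vehicle control, with 95% intervals, filled points where the adjusted p was under 0.05 and dotted lines at -1 and 1. CCND2 stands at -2.92 and -3.71 in A431, and CCNE2 lies on opposite sides of 0 for CKI and for 5-FU or doxorubicin.

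CDKN1C (chromosome 11, 2904443 to 2907005, 4 exons), which encodes p57, moved in opposite directions in the lines. In A431 it rose from 46, 35 and 42 counts to 102, 87 and 101 with CKI and to 130, 117 and 114 with doxorubicin, that is from 2.42 ± 0.440 CPM to 5.15 ± 0.552 and 5.96 ± 0.346. The untreated libraries lay below those of either agent. The log2 fold changes were 1.00 for CKI (SE 0.21, edgeR adjusted p = 0.00020) and 1.28 for doxorubicin (SE 0.20, edgeR adjusted p = 5.6e-06), the first at the edge of the threshold for DE. Vehicle went the other way, to 8, 27 and 27 counts (-1.10, SE 0.28, edgeR adjusted p = 0.0030), a call lost with GC and length offsets (-0.66, edgeR adjusted p = 0.065). Without vehicle replicate 1, with 8 counts, or without untreated replicate 1, no member was DE with vehicle. In MDA-MB-231, untreated libraries had 236, 551 and 550 counts, CKI libraries 226, 283 and 236 and 5-FU libraries 229, 209 and 212. The 5-FU libraries lay below the untreated ones (-1.08, SE 0.22, edgeR adjusted p = 0.0012), and the CKI libraries overlapped untreated replicate 1 (-0.84, SE 0.22, edgeR adjusted p = 0.011). Without that replicate the values were -1.36 and -1.11, and with GC and length offsets -0.94 and -0.94.

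CDKN1B (chromosome 12, 12838432 to 12875303, 3 exons), which encodes p27, changed by less than 1 on the log2 scale in each comparison. Its largest difference was the fall with 5-FU in MDA-MB-231, from 59.7, 54.6 and 47.9 CPM to 33.6, 34.5 and 34.7 (-0.66, SE 0.075, edgeR adjusted p = 1.4e-05), without overlap. CKI left it at 60.6 to 61.9 CPM there (0.17, SE 0.074, edgeR adjusted p = 0.086), and without untreated replicate 1 this was 0.25 (edgeR adjusted p = 0.00095). In A431 it was 0.22 higher with doxorubicin (SE 0.067, edgeR adjusted p = 0.0044) and -0.17 with CKI (SE 0.068, edgeR adjusted p = 0.028), values that were not stable. The doxorubicin difference was -0.08 against vehicle (edgeR adjusted p = 0.25) and 0.04 with GC and length offsets (edgeR adjusted p = 0.52). The CKI call was lost with DESeq2 (-0.15, DESeq2 adjusted p = 0.068) and with the offsets (-0.10, edgeR adjusted p = 0.12). Vehicle itself raised CDKN1B by 0.30 (SE 0.067, edgeR adjusted p = 0.00099).

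Read against all genes, these counts of single-agent changes were as follows. With CKI in A431, 9 of 9 tested members passed the test, against 67.0% of 15881 genes, and 5 were DE, against 22.4%. With doxorubicin, 9 of 9 passed, against 80.6%, and 2 were DE, against 37.3%. With vehicle, 6 of 9 passed, against 42.5%, and CDKN1C was DE, against 2.54% of genes. With CKI in MDA-MB-231, 5 of 9 passed, against 36.2% of 13999 genes, and 0 were DE, against 5.96%. Without untreated replicate 1, 8 of 9 passed and CDKN1C was DE. DESeq2 also called 0 of the 9 DE, and 6 members had an unadjusted p under 0.05 with edgeR. With 5-FU, 6 of 9 passed, against 57.1%, and 2 were DE, against 13.3%, or 3 without untreated replicate 1, where CCND1 was added. CCND1 with 5-FU, and CDK4 and CCNE2 with doxorubicin, fell just short of the threshold for DE and were not counted, and leaving out single libraries moved the DE members between 1 (without untreated replicate 2 or 3) and 3 with 5-FU and between 2 and 4 (without untreated A431 replicate 1) with doxorubicin. The median size of the log2 fold change over the members was 1.00 with CKI in A431, where it was 0.57 over all genes, and 0.40 with CKI in MDA-MB-231, where it was 0.25. In the other single-agent contrasts the medians were 0.81 against 0.72 (doxorubicin) and 0.64 against 0.39 (5-FU).

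**Figure D4:**
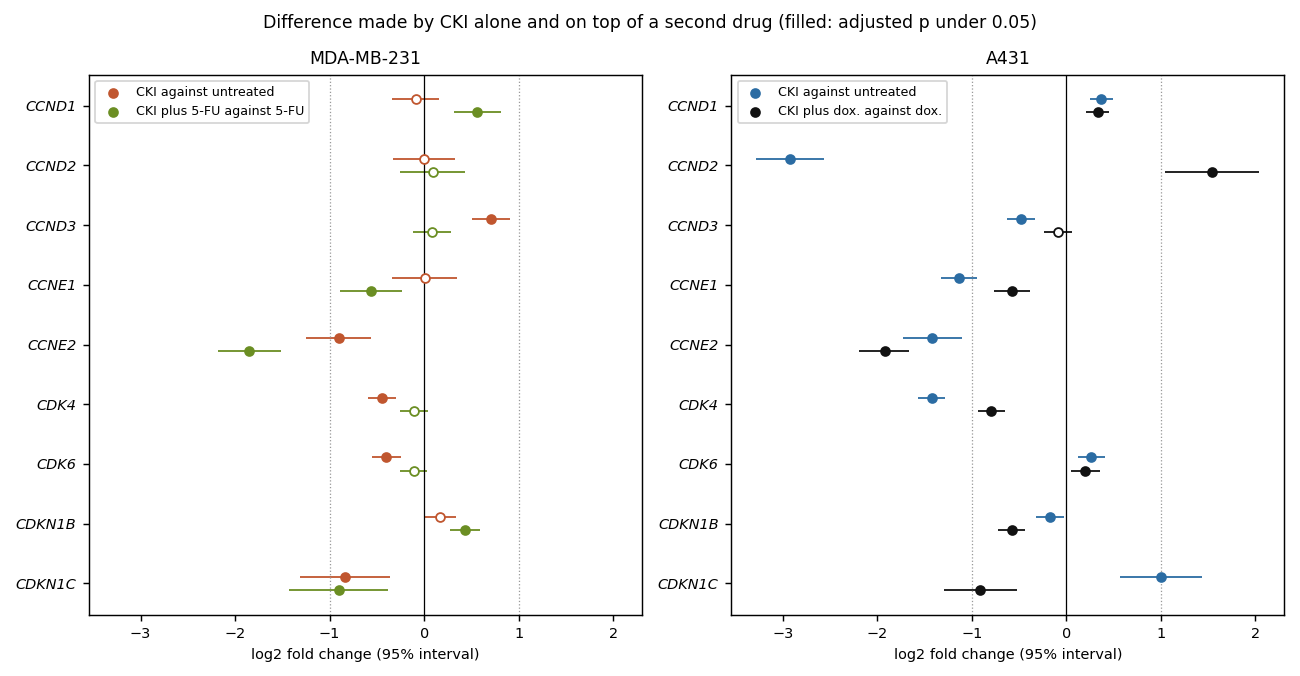
Log2 difference made by CKI (x axis, with 95% intervals) when given alone and when added to 5-FU (MDA-MB-231) or doxorubicin (A431), with filled points where the adjusted p was under 0.05. CCNE2 is lower with CKI in all 4 contrasts (-0.90 to -1.92), while CCND2 and CDKN1C in A431 change sign. The -0.90, for CKI alone in MDA-MB-231, rests in part on untreated replicate 1, which stood apart.

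Adding CKI to the drug lowered CCNE2 in both lines. In MDA-MB-231 it fell from 34.3, 36.2 and 35.7 CPM with 5-FU to 9.31, 9.52 and 10.6 with CKI plus 5-FU (-1.85, SE 0.15, edgeR adjusted p = 1.5e-06), and in A431 from 16.0, 16.7 and 14.3 CPM with doxorubicin to 3.99, 4.10 and 4.10 (-1.92, SE 0.13, edgeR adjusted p = 1.1e-11). The combination was near CKI alone in MDA-MB-231 (0.30, 95% interval -0.05 to 0.65) and lay above CKI alone in A431 (0.46, SE 0.16, edgeR adjusted p = 0.014). With CKI added to the drug, CCNE1 fell as well, at -0.56 in MDA-MB-231 (SE 0.15, edgeR adjusted p = 0.0090) and at -0.58 in A431 (SE 0.092, edgeR adjusted p = 9.7e-06). CCND1 went the other way and lay 0.56 above 5-FU (SE 0.11, edgeR adjusted p = 0.0014) and 0.33 above doxorubicin (SE 0.058, edgeR adjusted p = 3.0e-05). The inhibitor CDKN1C fell with the addition in each line (-0.90, SE 0.24, edgeR adjusted p = 0.0083, and -0.91, SE 0.19, edgeR adjusted p = 0.00020). CDKN1B rose by 0.43 over 5-FU (SE 0.075, edgeR adjusted p = 0.00053) and fell against doxorubicin (-0.58, SE 0.067, edgeR adjusted p = 1.1e-07). Over 5-FU, 5 of 9 members passed, against 50.4% of genes, and 1 was DE, against 9.77%. Over doxorubicin, 8 of 9 passed, against 63.6%, and 2 were DE, against 14.9%.

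The reverse comparison set the combination against CKI alone. CKI plus 5-FU differed from CKI in 6 of 9 members, against 42.1% of genes, and in 1 DE member, against 3.81%. That member was CDKN1C, at 116, 112 and 124 counts against 226, 283 and 236 (-1.15, SE 0.24, edgeR adjusted p = 0.0028, or -0.82 with GC and length offsets). CKI plus doxorubicin differed from CKI in 8 of 9 members, against 73.3%, and in 0 DE members, against 25.7%, where edgeR gave 8 at an unadjusted p under 0.05 and DESeq2 also called 0. CDK6 had the largest of these differences (-0.87, SE 0.072, edgeR adjusted p = 3.2e-10), followed by CCND2, CDKN1C, CCND1 at -0.61 (SE 0.058, edgeR adjusted p = 3.2e-09) and CCND3 at 0.60 (SE 0.072, edgeR adjusted p = 1.1e-07).

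Whether the effect of CKI depended on the other drug was tested as an interaction, in which the combination is set against the sum of the single effects. In A431, 7 of 9 members passed, against 57.4% of genes, and 2 were DE, against 19.5%. CCND2 differed by 4.46 (SE 0.30, edgeR adjusted p = 2.4e-11) and CDKN1C by -1.91 (SE 0.28, edgeR adjusted p = 4.1e-06), each of which had moved the same way with either agent alone. CCND2 was already down to 33, 29 and 31 counts with CKI and to 21, 23 and 11 with doxorubicin. The sum of both falls would lie near the limit of detection, so the size of 4.46 rests in part on a level that could hardly be measured. For CDK4 the interaction was 0.63 (SE 0.099, edgeR adjusted p = 1.1e-05), so that the combination lay higher than the sum of the single falls. In MDA-MB-231, 5 of 9 members passed, against 31.4%, and 0 were DE, against 6.84%, where 7 had an unadjusted p under 0.05 with edgeR and DESeq2 also called 0. The largest were CCNE2 (-0.95, SE 0.22, edgeR adjusted p = 0.0061), CCND1 (0.65, SE 0.16, edgeR adjusted p = 0.0090) and CCND3 (-0.63, SE 0.13, edgeR adjusted p = 0.0037). Without untreated replicate 1, CCNE2 was DE at -1.18, and without 5-FU replicate 3 or CKI replicate 1, 3 of 9 members passed.

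Between the untreated lines, CDKN1C differed most, at 2.42 ± 0.440 CPM in A431 and 21.6 ± 8.07 in MDA-MB-231 (-3.11 in A431 relative to MDA-MB-231, SE 0.27, edgeR adjusted p = 1.6e-07). CCND2 was 1.02 higher in A431 (SE 0.15, edgeR adjusted p = 4.0e-05), CCND1 0.88 higher (SE 0.11, edgeR adjusted p = 7.5e-06) and CCNE1 0.81 higher (SE 0.16, edgeR adjusted p = 0.00040), while CCNE2 was lower (-0.88, SE 0.18, edgeR adjusted p = 0.00056). In all, 8 of 9 members passed, against 78.6% of 14848 genes, and 2 were DE, against 42.9%, or 1 without untreated replicate 2 of either line and 3 without MDA-MB-231 replicate 3. The effect of CKI differed between the lines in 8 of 9 members, against 47.0%, and beyond 1 in 4, against 18.5%. CCND2 (-2.91, SE 0.25, edgeR adjusted p = 9.3e-07), CCND3 (-1.18, SE 0.14, edgeR adjusted p = 2.0e-05) and CCNE1 (-1.14, SE 0.23, edgeR adjusted p = 0.0012) changed more negatively in A431, and CDKN1C more positively (1.84, SE 0.37, edgeR adjusted p = 0.0012). With GC and length offsets 2 members remained beyond 1, with CCND3 at -0.77 and CCNE1 at -0.91. With vehicle as the A431 control, 7 of 9 members passed and 3 were beyond 1, where 5869 of all genes passed and 2151 were beyond 1. For CCNE2, which fell in both lines, the difference was -0.50 (SE 0.28, edgeR adjusted p = 0.15).

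Genes around these members in the pathway were counted in lists, whose counts of rises and falls stand against the shares of all genes that passed the test (67.0% with CKI and 80.6% with doxorubicin in A431, 36.2% with CKI and 57.1% with 5-FU in MDA-MB-231). These shares count rises and falls together, and with CKI in A431 5357 of 15881 genes fell. The shares that were DE were, in the same order, 22.4% and 37.3% in A431 and 5.96% and 13.3% in MDA-MB-231. All 10 of 10 S phase genes that E2F factors drive, among them CDC45, CDT1 and TK1, fell with CKI in A431 and were DE, with a median log2 fold change of -2.32 where that of all genes was 0.00. CDC45, a part of the replicative helicase, stood at -2.94 (SE 0.076, edgeR adjusted p = 5.2e-19). In MDA-MB-231, 7 of 10 fell with CKI and 1 was DE (TYMS, thymidylate synthase, the target of 5-FU, at -1.04, SE 0.10, edgeR adjusted p = 1.6e-05), with a median of -0.42. With 5-FU, 6 rose and 1 fell, led by RRM2, a ribonucleotide reductase subunit, at 1.27 (SE 0.10, edgeR adjusted p = 7.1e-07). With doxorubicin, 7 fell and 2 rose, and POLA1, a catalytic subunit of DNA polymerase alpha, at -1.79 (SE 0.085, edgeR adjusted p = 8.1e-15) was the DE one. CKI added to doxorubicin lowered 10 of 10, where 63.6% of all genes passed and 4739 of 15881 fell. CKI added to 5-FU lowered 9 of 10, where 50.4% passed and 3433 of 13999 fell.

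Of the 13 genes of the RB and E2F families, 9 fell and 3 rose with CKI in A431 (against the 67.0% of all genes), led by E2F2 (-2.18, SE 0.085, edgeR adjusted p = 4.5e-16) and E2F1 (-2.06, SE 0.071, edgeR adjusted p = 6.5e-17). In MDA-MB-231 4 fell and 1 rose, with E2F2 at -1.46 (SE 0.16, edgeR adjusted p = 3.1e-05), and with 5-FU 7 rose and 1 fell, with E2F8 at 1.35 (SE 0.086, edgeR adjusted p = 1.4e-07). Doxorubicin lowered 7 and raised 5, against the 80.6% of all genes. Of the 10 other regulators of G1 and S kinases, CDKN1A, which encodes the inhibitor p21, rose by 2.55 with CKI (SE 0.058, edgeR adjusted p = 1.1e-19) and by 1.72 with doxorubicin in A431 (SE 0.057, edgeR adjusted p = 1.6e-17) and by 1.54 with 5-FU in MDA-MB-231 (SE 0.069, edgeR adjusted p = 1.0e-08). Part of the CDKN1A difference in A431 was also seen with vehicle, at 162 ± 4.62 CPM against 83.4 ± 3.17 in untreated cells. CKI-treated cells had 519 ± 22.9 CPM and doxorubicin-treated cells 280 ± 14. Among the same regulators 6 fell with CKI in A431, of which CCNA2 (cyclin A2) stood at -2.13 (SE 0.080, edgeR adjusted p = 2.3e-16). Among 11 genes for the turnover of cyclins and inhibitors, 5 fell and 3 rose with CKI in A431, where SKP2, which marks p27 for breakdown, stood at -1.38 (SE 0.077, edgeR adjusted p = 2.5e-13), and 6 fell and 4 rose with doxorubicin, against 67.0% and 80.6% of all genes. All 9 of 9 FOXO and TGF-beta inputs rose with CKI in A431 and 4 were DE, led by FOXO1 (1.49, SE 0.13, edgeR adjusted p = 7.8e-10), and 6 of the 9 also rose with vehicle. Of all 15881 genes, 5291 rose with CKI and 22.4% were DE, and 3682 rose with vehicle. In MDA-MB-231, 3 of these fell and 1 rose with CKI.

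The members were also set beside each other and beside all other genes by the Pearson r of their mean log2 CPM over the 9 groups, with the mean of each line subtracted. These values share libraries and describe likeness only. CDK4 and CCNE1 were most alike (r = 0.89), and CDK6 and CCND3 most unlike (-0.86), while the E-type cyclins had an r of 0.73 and CDK4 and CDK6 of 0.55. Among 8317 candidate genes, the pair most like CCNE1 was POLQ (0.992) and MDC1 (0.990), and that most like CDK4 was BZW2 (0.987) and DUT (0.985). For CCND1 these were USP48 (0.992) and SHANK2 (0.988), for CCND2 ANKRD6 (0.978) and PMP22 (0.967), and for CCND3 SH3BP5L (0.959) and VGF (0.948). For CCNE2 they were REXO5 (0.987) and GBP1P1 (0.984), for CDK6 GPD2 (0.972) and CNOT6L (0.972), for CDKN1B GALC (0.927) and IFT70A (0.913), and for CDKN1C B3GNT9 (0.968) and LAG3 (0.966).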

How the data were processed

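Total RNA libraries of both lines were analysed from 1 table of read counts per Entrez gene, which the authors deposited without normalization. Per the labels, reads had been trimmed with Trim Galore 0.3.7 and aligned with STAR 2.5.3a to hg19, and edgeR is named without a version; the counting tool, annotation and strand setting are not given in the sources used here. The members and lists were chosen with earlier results of these data known. All members were named, and pathway genes were named where they had the largest changes among the DE genes of their list. Counts were tested with edgeR 4.0.16 in R 4.3.3 (filterByExpr, TMM factors, quasi-likelihood F-test, two-sided) in 3 fits, over the 12 MDA-MB-231 libraries, the 15 A431 libraries and the 12 libraries that were untreated or given CKI alone. Replicates are biological per the series design, and p-values measure the spread between these samples only. Intervals are 95% intervals. CPM used TMM factors over the 27 libraries, log2 CPM a prior count of 2, and lengths, exon numbers and promoter windows the canonical transcript of GENCODE on GRCh37, while printed positions are gene spans and may begin before that transcript. GC and length offsets were lowess fits per library with a span of 0.3. Alternatives were DESeq2 1.42.0, other scalings and filters, the replicate block, the vehicle control and leaving out each library (39 fits). Code was tested on simulated counts. The promoter of CCND2 is not reported here.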

Additional observations from a re-analysis of the deposited data

Results flagged for a closer look

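The effect of CKI differed with the other drug or between the lines, by the test of the difference itself (edgeR interaction terms, adjusted p under 0.05), for the following values on the log2 scale. In MDA-MB-231, adding 5-FU changed the effect of CKI by 0.65 for CCND1, -0.63 for CCND3, -0.95 for CCNE2, 0.34 for CDK4 and 0.29 for CDK6. With and without doxorubicin in A431, it differed by 4.46 for CCND2, 0.39 for CCND3, 0.56 for CCNE1, -0.51 for CCNE2, 0.63 for CDK4, -0.40 for CDKN1B and -1.91 for CDKN1C. CCND2 had 11 to 23 counts in the doxorubicin libraries, so its value rests on few reads. Between the lines (A431 minus MDA-MB-231), this effect differed by 0.47 for CCND1, -2.91 for CCND2, -1.18 for CCND3, -1.14 for CCNE1, -0.97 for CDK4, 0.67 for CDK6, -0.34 for CDKN1B and 1.84 for CDKN1C. The untreated MDA-MB-231 replicate that stood apart enters the values of the MDA-MB-231 and line comparisons. The line values also rest on untreated A431 cells, from which vehicle alone differed in several members. It moved CDK6 by 0.64, CCND1 by 0.27, CCND2 by 0.33, CCND3 by -0.38, CDKN1B by 0.30 and CDKN1C by -1.10. MDA-MB-231 had no vehicle group, so these values are not shown to be particular to CKI.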

How the results depend on the processing

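Over the alternatives, 1760 of the results for single members kept their direction and side of the threshold, 123 lost the call, 43 gained it and 12 changed sign. When A431 cells given vehicle served as control, the CKI value of CDK6 turned from 0.26 to -0.37, the doxorubicin value of CDKN1B from 0.22 to -0.08, the interactions of CKI and doxorubicin for CCND1 from -0.04 to 0.24 and for CDK6 from -0.06 to 0.58, and the line difference of CDKN1B from -0.23 to 0.07. With GC and length offsets, with or without the replicate block, CDK6 turned to -0.14 with CKI in A431 and from 0.20 to -0.02 with CKI added to doxorubicin, and CCND3 in the latter from -0.09 to 0.13. Library size alone turned CDKN1B from -0.18 to 0.03 for CKI plus doxorubicin against CKI, and moved the median of all genes for doxorubicin to 0.36.

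The number of DE members moved as follows. For the lines it went from 2 to 1 with RLE factors, no filter, at least 10 counts in every library, the compared groups only and DESeq2, and to 3 against vehicle. For doxorubicin it went from 2 to 3 with RLE factors, library size alone, no filter, the offsets, the compared groups only, vehicle and DESeq2. For 5-FU it went from 2 to 3 with RLE factors, no filter and DESeq2. It also went from 2 to 1, and for the interaction of CKI and 5-FU from 0 to 1, with library size alone and with the offsets (with or without the block). The offsets also took CKI plus 5-FU against CKI from 1 to 0, vehicle from 1 to 0 and the line difference in CKI from 4 to 2 (3 against vehicle). CKI in A431 went from 5 to 4 with no filter, at least 10 counts, the replicate block and the offsets. At least 10 counts took vehicle from 1 to 0 and the interaction of CKI and doxorubicin from 2 to 1. Leaving out 1 library gave 1 to 3 for 5-FU, 1 to 3 for the lines, 0 to 1 for the interaction of CKI and 5-FU, 0 to 1 for CKI in MDA-MB-231, 2 to 4 for doxorubicin and 0 to 1 for vehicle. The cause was not tested.

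No pairing by replicate numbers shared across groups was seen, since the correlations of their deviations ran from -0.24 to 0.12. With 3 replicates per group this does not exclude a shared effect. In the fit with the replicate block, CDK6 in the interaction of CKI and 5-FU (0.29, edgeR adjusted p = 0.072) and CDK4 between the lines (0.23, edgeR adjusted p = 0.054) lost their calls, and the other 115 of 117 member results kept theirs. Depth limits CCND2 and CDKN1C in A431, which fell to 11 and 8 counts in single libraries, and CDKN2B, which had none.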
